A study of Papio papio with 23 samples.

Results

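PARP1 and 6 other genes of single-strand break and base excision repair (XRCC1, LIG3, APEX1, OGG1, UNG and POLB) were followed in the blood of irradiated baboons. The genes were taken by name: every probe that the scanner files assign to 1 of the 7 symbols was used, which gave 10 of the 50599 probes on the array. Of these 10 probes, 9 were kept for testing, and all 7 genes had at least 1 kept probe among the 21130 gene names tested, out of 36337 on the array. The measurements came from peripheral whole blood of adult male Papio papio (Guinea baboon), with 1 human Agilent single-colour expression array per blood sample and 23 arrays in all.

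Animals in the irradiated groups received cobalt-60 gamma rays to the whole or to part of the body, and the labels put the equivalent dose to the whole body at 2.5 or 5 Gy and the average age at 8.1 years (SD 3.3), neither of them per animal but over all animals of the study. Groups are named by the category of haematological acute radiation syndrome that the animals developed later, H2-3 being the more severe and H1-2 the milder one. Category H2-3 holds 5 baboons sampled on day 1 and on day 2, category H1-2 holds 4 baboons sampled on the same days, and H0 holds 5 baboons sampled before irradiation. The labels name no genotype or drug, and the labels do not say whether the H0 animals are the ones irradiated later. The study asked which blood transcripts of the first 2 days mark the syndrome that comes later. Since a category was assigned from the later course, dose, exposed body part and category are not separated by these labels.

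Base excision repair removes damaged or wrong bases from DNA. A DNA glycosylase such as UNG (uracil) or OGG1 (8-oxoguanine) cuts out the base, the endonuclease APEX1 opens the strand at the empty site, DNA polymerase beta (POLB) fills the gap, and the ligase LIG3, held by the scaffold protein XRCC1, seals it. PARP1 binds the strand breaks that ionising radiation makes directly or that appear during repair, and builds chains of poly(ADP-ribose) that recruit XRCC1. Circulating lymphocytes are known to be among the most radiosensitive cells of the body.

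PARP1 was read at both ends of its transcript, so its 2 kept probes are shown with the sequences printed on the array, 5′ to 3′. Capitals mark the stop codon that closes the only open reading frame of the second probe. Positions are on the human build hg19.
PARP1 5′ probe A_33_P3290338: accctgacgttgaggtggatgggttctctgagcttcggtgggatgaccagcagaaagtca
PARP1 3′ probe A_33_P3236921: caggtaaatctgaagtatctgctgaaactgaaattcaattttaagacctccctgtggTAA
The 5′ probe lies on chromosome 1 at 226589945 to 226590004 on the minus strand and begins at base 367 of the transcript NM_001618. The 3′ probe lies at 226549161 to 226549220 on the same strand and begins at base 3156 of that transcript. One more PARP1 probe, A_33_P3290335, matches the alternative transcript ENST00000366790 at 226589684 to 226589743. It was not well above background on any of the 23 arrays and gives no test.

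The APEX1 and XRCC1 probes are shown because each crosses a splice junction and so reads spliced RNA.
APEX1 probe A_23_P151653: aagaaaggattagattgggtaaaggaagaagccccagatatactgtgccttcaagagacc
XRCC1 probe A_23_P153692: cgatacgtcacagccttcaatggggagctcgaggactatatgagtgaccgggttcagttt
The APEX1 probe covers 60 bases within chromosome 14, 20924246 to 20924871 on the plus strand, and the XRCC1 probe 60 bases within chromosome 19, 44047803 to 44048318 on the minus strand. LIG3 was read by A_23_P501134 on chromosome 17, within 33328391 to 33328955 on the plus strand, which also crosses a junction. UNG was read by A_33_P3236157 on chromosome 12, at 109548738 to 109548797 on the plus strand, and its listed transcripts NM_003362 and NM_080911 are not separated by it. OGG1 had 2 kept probes on chromosome 3, A_23_P212196 at 9808037 to 9808096 (listed for NM_016828) and A_23_P344392 at 9793551 to 9793610 (listed for NM_002542), both on the plus strand. POLB was read by A_32_P34552. These are human sequences hybridised with baboon RNA, and base differences between the species under a probe were not examined.

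Levels are log2 signals relative to the 75th percentile of the same array, so 0 is the level of that percentile and a difference of 1 is a 2-fold change. On single arrays 41.4 to 51.3% of all probes were well above background. No spot of the 7 genes was saturated or marked as an outlier. All kept probes of these genes were well above background on 23 of 23 arrays, except that of UNG, which was so on 22. The arrays lay on 7 slides scanned on 3 days. All day 2 arrays were scanned on a day that held no other group, so day 2 cannot be told apart from scan day when it is set against H0 or day 1. Both categories of 1 day shared slides.

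PARP1 messenger RNA fell after irradiation, most in the H2-3 animals on day 1, and it was the only one of the 7 genes that passed the test in 3 of the 4 comparisons with H0. The 5′ probe read -0.10, 1.28, 1.11, 0.56 and 0.30 in H2-3 blood on day 1, against 2.99, 2.14, 3.04, 3.28 and 2.87 in H0 blood. All 5 H2-3 values lay below the lowest H0 value, a pattern that 9.27% of all tested genes had. The fall was 2.24 ± 0.32 on the log2 scale (SE, n = 5 each), a 4.71-fold lower level (95% interval of the log2 change -2.91 to -1.56, limma adjusted p = 0.00011). The 3′ probe gave a change of -1.76 ± 0.28 (adjusted p = 0.00017), again with all 5 H2-3 arrays below all H0 arrays. With slide as a block, which rests on 1 array of each group, the changes were -2.97 and -2.66.

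On day 2 the H2-3 blood still held less PARP1. Its 5′ probe read 1.22, 1.77, 1.89, 1.15 and 1.78, all below the H0 values given above, as in 2.96% of all genes. The change against H0 was -1.30 ± 0.32 (2.47-fold lower, limma adjusted p = 0.0147) by the 5′ probe and -1.03 ± 0.28 (adjusted p = 0.0199) by the 3′ probe. Without H2-3 day 2 replicate 4, the adjusted p was 0.0527 for the 5′ probe and 0.0629 for the 3′ probe, above the threshold of 0.05.

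In the milder H1-2 category PARP1 read 1.43, 0.99, 2.49 and 1.93 on day 1, and 3 of these 4 values lay below every H0 value. The change was -1.15 ± 0.34 (2.23-fold lower, n = 4 and 5, limma adjusted p = 0.0404) by the 5′ probe, while the 3′ probe gave -0.74 ± 0.29 (adjusted p = 0.108). This call was close to the threshold. It was lost in 6 of the 9 fits that left out 1 array (H0 replicate 1, 4 or 5, or H1-2 day 1 replicate 1, 2 or 4), with an adjusted p of up to 0.142, and also with scan day as a block (adjusted p = 0.081), although the change itself was larger within the 1 scan day that held both groups (-1.36, n = 4 and 3). By day 2 the H1-2 baboons had 1.76, 2.12, 2.60 and 3.30, which overlapped H0, and neither probe passed the test (5′ probe -0.42 ± 0.34, adjusted p = 0.655).

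**Figure D1:**
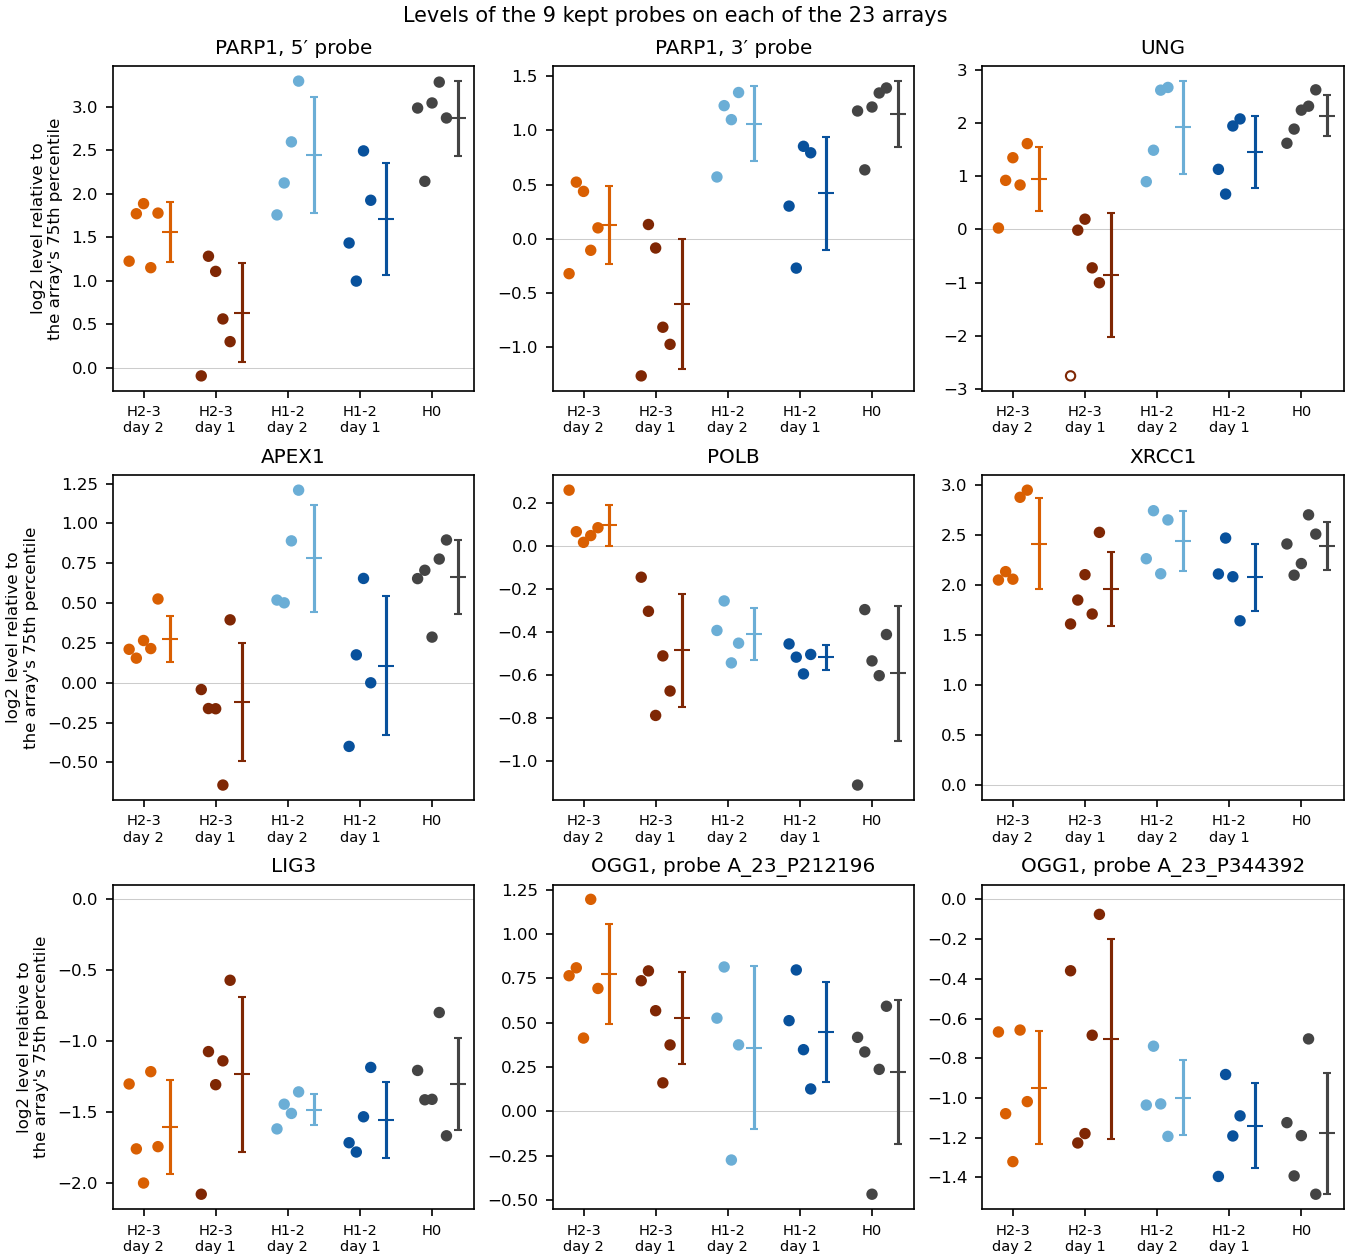
Log2 level relative to the array's 75th percentile (vertical axis) of the 9 kept probes on each array, grouped as H2-3 day 2, H2-3 day 1, H1-2 day 2, H1-2 day 1 and H0; points are arrays, in order of baboon number within a group, bars the mean ± SD, and the open point an array on which UNG was not well above background. Both PARP1 probes and UNG have their lowest group mean in H2-3 day 1 blood, and all 5 POLB values of H2-3 day 2 lie above all other arrays.

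UNG, the glycosylase that removes uracil from DNA, changed in H2-3 day 1 blood by more than the other 6 genes. In H2-3 blood on day 1 it read -2.75, -0.01, 0.19, -0.72 and -1.0, against 1.62, 1.89, 2.24, 2.32 and 2.62 in H0 blood. All 5 H2-3 values lay below all H0 values, as in 9.27% of all tested genes. The lowest value, that of replicate 1, was not well above background. UNG fell by 3.00 ± 0.46 on the log2 scale (7.98-fold lower, 95% interval -3.96 to -2.03, limma adjusted p = 0.00017, n = 5 each). Without replicate 1 the change was -2.52, the smallest of the 10 fits that left out 1 array, and all 10 kept the call. The size depended on the setting: the change was -2.00 with normexp background and -5.37 with slide as a block, which rests on 1 array of each group, among them that of replicate 1.

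On day 2 UNG read 0.03, 0.92, 1.35, 0.83 and 1.61 in H2-3 blood, again all below H0, as in 2.96% of all genes. The change of -1.19 ± 0.46 did not pass the test (limma adjusted p = 0.0796), and it passed in 3 of the 10 other analyses. Blood of H1-2 animals had 1.13, 0.66, 1.94 and 2.08 on day 1 and 0.90, 1.49, 2.62 and 2.67 on day 2, both overlapping H0. Neither change passed the test (-0.68 ± 0.49, adjusted p = 0.395, and -0.22 ± 0.49, adjusted p = 0.879).

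APEX1, the main endonuclease for sites without a base, also fell in H2-3 blood on day 1. It read -0.04, -0.16, -0.16, -0.64 and 0.40, against 0.65, 0.71, 0.29, 0.78 and 0.90 in H0 blood. Of the 5 H2-3 values, 4 lay below all H0 values and 1 overlapped them. The change was -0.79 ± 0.21 (1.73-fold lower, limma adjusted p = 0.00775). With slide as a block the adjusted p was 0.237. That fit takes its value of -0.94 from the single slide that carried both groups, with 1 array of each.

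The other APEX1 comparisons with H0 did not pass the test. H1-2 day 1 blood gave -0.56 ± 0.22 (adjusted p = 0.111), with 3 of 4 arrays below all H0 arrays. On day 2 the change was -0.39 ± 0.21 in H2-3 blood (adjusted p = 0.187) and 0.12 ± 0.22 in H1-2 blood (adjusted p = 0.858).

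POLB, the gap-filling polymerase, moved the other way, and of its 4 comparisons with H0 the one of H2-3 day 2 passed the test. It read 0.26, 0.07, 0.02, 0.05 and 0.09 in H2-3 blood on day 2, against -1.11, -0.29, -0.53, -0.60 and -0.41 in H0 blood. All 5 H2-3 values were above all H0 values, as in 5.66% of all genes. The change was 0.69 ± 0.16 on the log2 scale (1.61-fold higher, 95% interval 0.35 to 1.02, limma adjusted p = 0.0118). In a fit of those 2 groups alone the adjusted p was 0.0543. On day 1 the H2-3 change was 0.11 ± 0.16 (adjusted p = 0.665), and the H1-2 changes were 0.07 ± 0.17 on day 1 (adjusted p = 0.819) and 0.18 ± 0.17 on day 2 (adjusted p = 0.702).

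XRCC1, LIG3 and OGG1 passed the test in no comparison. XRCC1, the scaffold, averaged 1.96 ± 0.37 in H2-3 day 1 blood and 2.39 ± 0.24 in H0 blood (SD, n = 5 each), a change of -0.43 ± 0.23 (adjusted p = 0.174). The interval of that change, -0.90 to 0.05, holds a fall as large as that of APEX1, and with the 75th percentile taken over the probes detected on all arrays its adjusted p was 0.0354. Its other changes against H0 lay between -0.31 and 0.06. LIG3, the ligase, changed by between -0.31 and 0.07 in the 4 comparisons with H0, with adjusted p-values of at least 0.353.

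Both OGG1 probes had higher means in irradiated blood than in H0, by 0.04 to 0.55, without passing the test, and the smallest of these changes (A_23_P344392, H1-2 day 1) was -0.08 with the percentile taken over detected probes. A_23_P212196 averaged 0.78 ± 0.28 in H2-3 day 2 blood and 0.22 ± 0.41 in H0 blood, with 4 of 5 arrays above all H0 arrays (change 0.55 ± 0.23, adjusted p = 0.0911). A_23_P344392 was highest in H2-3 day 1 blood, at -0.71 ± 0.50 in H2-3 blood and -1.18 ± 0.30 in H0 blood (change 0.47 ± 0.22, adjusted p = 0.11). The probes are listed for different transcripts, and the group with the highest mean differed between them.

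**Figure D2:**
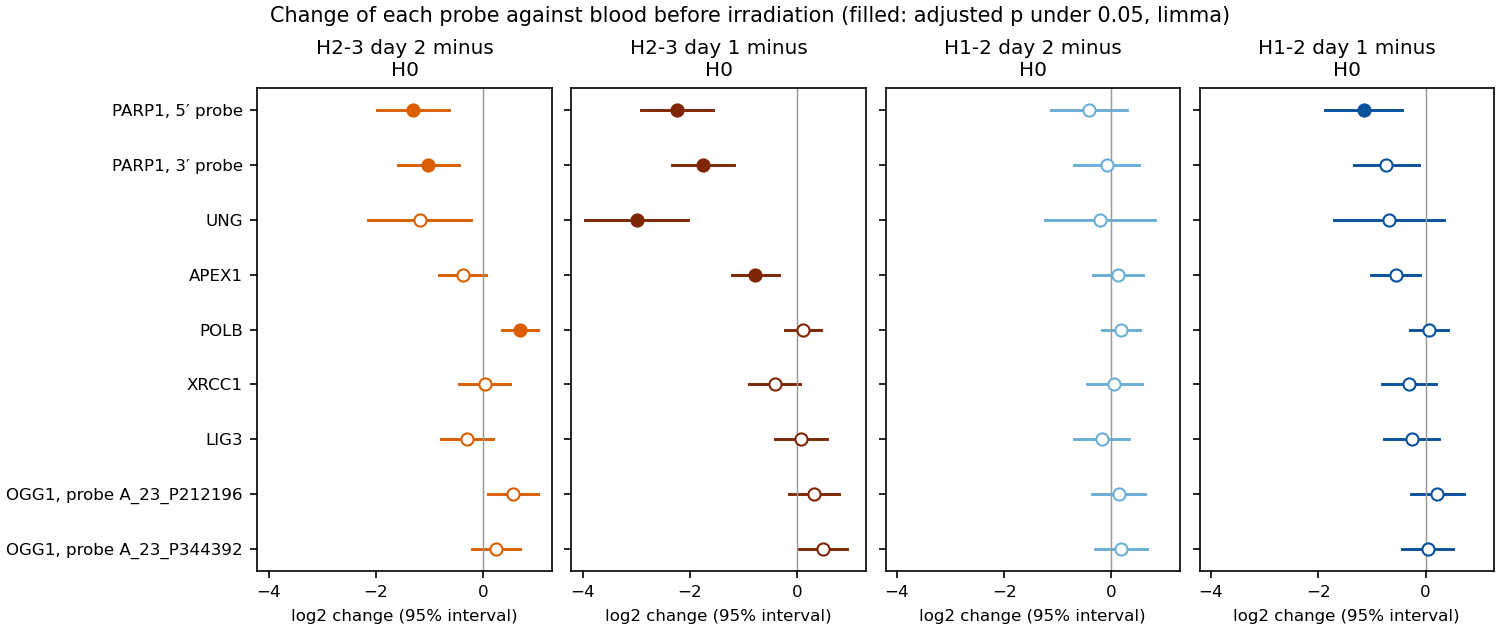
Log2 change of each kept probe against H0 (horizontal axis, point) with its 95% interval (line), in H2-3 day 2, H2-3 day 1, H1-2 day 2 and H1-2 day 1 blood; filled points have a limma adjusted p under 0.05. PARP1 is filled in 3 panels, UNG and APEX1 in the H2-3 day 1 panel, and POLB, at 0.69, is the filled point above 0.

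Counted over genes, 3 of the 7 were lower and 0 higher in H2-3 day 1 blood (PARP1, UNG and APEX1), where 13.5% of all tested genes were lower and 14.9% higher. On day 2 in the same category 1 gene was lower (PARP1) and 1 higher (POLB), against 4.47% and 10.3% of all genes. In H1-2 blood 1 gene was lower on day 1 (PARP1), against 4.42% of all genes, and 0 were higher, against 4.18%. On day 2 limma called 0 of the 7 genes and 0% of all genes in H1-2 blood, and 0 of the 7 had an unadjusted p under 0.05, against 10.5% of all genes. The median change of the 7 genes was -0.43 in H2-3 day 1 blood, where the median over all genes was 0.14. These 4 comparisons share the 5 H0 arrays.

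By group mean, the 5′ probe of PARP1 stood highest in H0, then in H1-2 day 2, H1-2 day 1, H2-3 day 2 and H2-3 day 1, and the ranges of every pair of neighbours in that order overlapped. The mean levels were 1.56 ± 0.35 in H2-3 day 2, 0.63 ± 0.57 in H2-3 day 1, 2.44 ± 0.66 in H1-2 day 2, 1.71 ± 0.64 in H1-2 day 1 and 2.87 ± 0.43 in H0 (SD, n = 5, 5, 4, 4 and 5). For POLB the highest group, H2-3 day 2, did not overlap the next one, H1-2 day 2.

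The categories were then set against each other on the same day, and no gene of the 7 passed the test, nor did any probe on the array (0% of genes). At an unadjusted p under 0.05 limma counted 2 of the 7 genes on day 1 (PARP1 and UNG), against 5.76% of all genes, and 3 on day 2 (PARP1, APEX1 and POLB), against 9.72%. On day 1, UNG in all 5 H2-3 arrays lay below all 4 H1-2 arrays (change -2.31 ± 0.49, adjusted p = 0.139), as did 1.07% of all genes. PARP1 differed by -1.08 ± 0.34 by the 5′ probe (adjusted p = 0.423) and -1.02 ± 0.29 by the 3′ probe (adjusted p = 0.346), with 3 of 5 H2-3 arrays below all H1-2 arrays.

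On day 2 the 3′ probe of PARP1 was lower in all 5 H2-3 arrays than in all 4 H1-2 arrays (change -0.94 ± 0.29, adjusted p = 0.508), a pattern that 0.771% of all genes had by the probes that stand for them. By the 5′ probe, which stands for PARP1, the ranges overlapped, with 2 of 5 H2-3 arrays below all H1-2 arrays (change -0.88 ± 0.34, adjusted p = 0.508). POLB was higher in all 5 H2-3 arrays (change 0.51 ± 0.17, adjusted p = 0.508), as were 0.568% of all genes. APEX1 differed by -0.51 ± 0.22 (adjusted p = 0.508).

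Within slides that held both categories, these differences were not uniform. On day 1 the 5′ probe of PARP1 differed by -0.02 on the slide with baboons 2 and 3 of H2-3 and 1 and 2 of H1-2, and by -1.78 on the slide with baboons 4 and 5 of H2-3 and 3 and 4 of H1-2. UNG differed by -0.81 and -2.87 on those slides. On day 2 the 2 slides gave -0.31 and -1.48 for PARP1 and -0.43 and -1.42 for UNG. POLB was alike on both, at 0.44 and 0.57. With slide as a block, no gene of the 7 passed in either comparison.

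Between the days, which were also scanned apart, every irradiated baboon had more PARP1 on day 2 than on day 1. The difference by the 5′ probe was 0.49 to 1.48 in the 5 H2-3 animals and 0.10 to 1.37 in the 4 H1-2 animals. UNG was higher on day 2 in 5 of 5 H2-3 baboons and in 3 of 4 H1-2 baboons. In H2-3 baboons 2 to 5 the difference was 0.94 to 2.61, and in baboon 1 the measured signals differed by 2.78, with the day 1 spot not well above background. In H2-3 animals UNG was the 1 gene of the 7 that passed the test (change 1.81 ± 0.46, 3.50-fold higher, limma adjusted p = 0.0447), where 1.54% of all genes were higher and 1.02% lower. That call was lost in 7 of the 10 fits that left out 1 array (day 1 replicate 1, 4 or 5, or day 2 replicate 2, 3, 4 or 5), with an adjusted p of up to 0.132, and in 5 of 10 alternative settings, normexp background among them (change 1.06, adjusted p = 0.0649).

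With the baboon as a block, which uses that the same animals were sampled on both days, 3 of the 7 genes were higher on day 2 in H2-3 blood: UNG, PARP1 by its 5′ probe (limma adjusted p = 0.046) and POLB (adjusted p = 0.0438). The share of all genes called with that block is not given here, so this count has no measure beside it. The number of all probes called also changed with the block. It was 676 without it and ranged over 187 to 3895 in the alternatives. The 3′ probe of PARP1 had an adjusted p of 0.0591 with that block and 0.0407 with the baboon as a random block. Without the block, PARP1 had an adjusted p of 0.0912 by the 5′ probe (change 0.93 ± 0.32) and 0.11 by the 3′ probe (change 0.73 ± 0.28), and POLB one of 0.0525 (change 0.58 ± 0.16), although all 5 POLB values of day 2 lay above all 5 of day 1, as was the case for 2.72% of all genes. In H1-2 blood limma called 0 of the 7 genes and 0% of all genes, and 1 of the 7 had an unadjusted p under 0.05, against 23.4% of all genes. That gene was APEX1 (change 0.67 ± 0.23, adjusted p = 0.15), which was higher on day 2 in 4 of 4 baboons. Whether the change between days differed between categories was tested directly, and 0 of the 7 genes passed by limma (0% of all genes), with 0 at an unadjusted p under 0.05 against 1.97% of all genes. UNG came to 1.34 ± 0.70 and POLB to 0.47 ± 0.24 (H2-3 minus H1-2, adjusted p = 1 each after rounding).

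**Figure D3:**
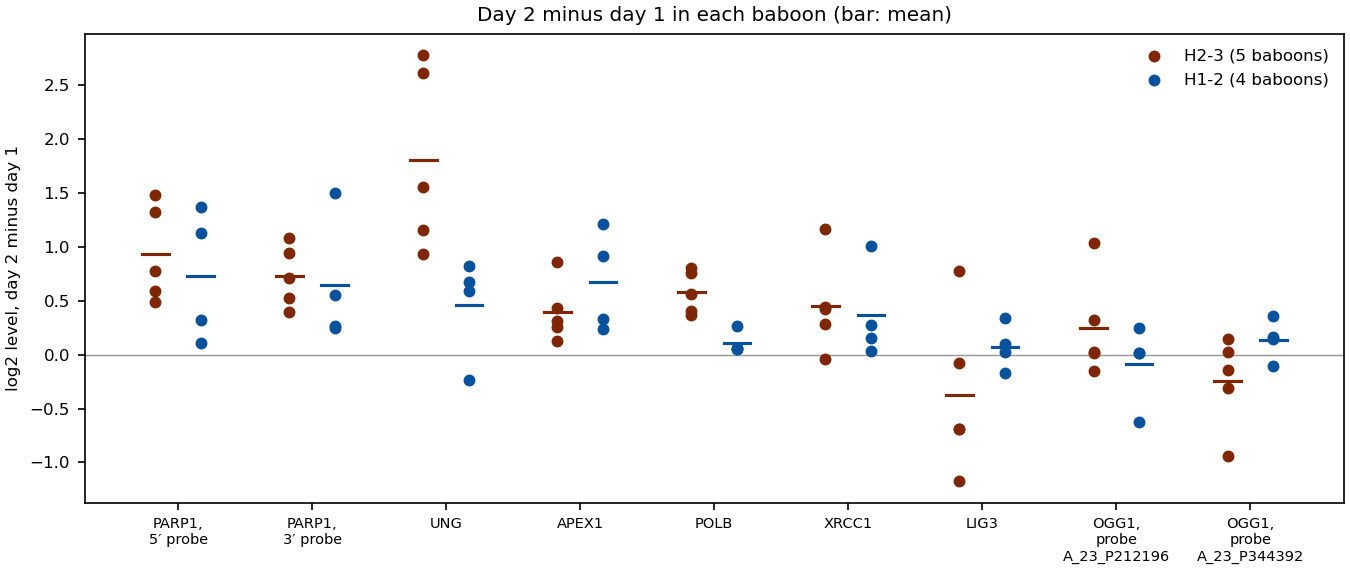
Log2 level on day 2 minus that on day 1 (vertical axis) in each irradiated baboon, for the 9 kept probes, with H2-3 left of H1-2; bars are means. Every point of PARP1, APEX1 and POLB is above 0, and the H2-3 points of UNG reach 2.78, in the baboon whose day 1 spot was not well above background.

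The other genes of the pathway were grouped by step. Of 8 further glycosylases tested, 3 were lower and 0 higher in H2-3 day 1 blood, where 13.5% of all genes were lower and 14.9% higher. MUTYH, which removes adenine opposite 8-oxoguanine, averaged 1.32 ± 0.20 in H2-3 day 1 blood and 2.36 ± 0.24 in H0 blood (change -1.04 ± 0.20, adjusted p = 0.00074), and it was also lower in H1-2 day 1 blood (-0.84 ± 0.21, adjusted p = 0.0223). NEIL1, a glycosylase for oxidised pyrimidines, fell by 0.56 ± 0.20 in H2-3 day 1 blood (adjusted p = 0.0346). NEIL2, of the same family, was not well above background on any H2-3 day 1 array and was so on 5 of 5 H0 arrays. That makes it at least 1.65-fold lower (limma adjusted p = 0.00834 on the measured signals). NEIL3 did not pass the filter on dim probes.

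Of 6 genes of strand-end processing, 1 was lower and 0 higher in H2-3 day 1 blood, beside the same shares of 13.5% and 14.9% of all genes. This gene, TDP1, which frees DNA ends from trapped topoisomerase I, was lower in H2-3 blood on day 1 (-1.18 ± 0.24, adjusted p = 0.00128) and day 2 (-0.73 ± 0.24, adjusted p = 0.0482), and in H1-2 blood on day 1 (-0.89 ± 0.26, adjusted p = 0.0371). APEX2, an endonuclease related to APEX1, was the next gene by the test over all groups and passed in no comparison (-0.45 ± 0.23 in H2-3 day 1 blood, adjusted p = 0.141). APLF did not pass the filter.

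Long-patch repair, which replaces several bases with replication enzymes, had 6 lower and 2 higher genes of 16 in H2-3 day 1 blood, beside 13.5% and 14.9% of all genes. POLD2, a subunit of DNA polymerase delta, averaged -2.07 ± 0.26 in H2-3 day 1 blood and -0.36 ± 0.32 in H0 blood (change -1.71 ± 0.26, adjusted p = 0.00015). POLD1, the catalytic subunit of the same polymerase, fell by 0.83 ± 0.15 (adjusted p = 0.00053). FEN1, the nuclease that trims the displaced strand, was not well above background on any H2-3 day 1 array and was so on 4 of 5 H0 arrays. Its bound was 1.55-fold lower, from an H0 mean that includes the array not well above background (limma adjusted p = 0.0003 on the measured signals). The other lower genes were POLE3, RFC4 and RFC5, and the higher ones POLD3 (0.70 ± 0.20, adjusted p = 0.0129) and RFC2 (0.60 ± 0.21, adjusted p = 0.0332). In H2-3 day 2 blood, where 4.47% of all genes were lower and 10.3% higher, 0 of the 16 were lower and 1 was higher: PCNA, the sliding clamp and a known target of p53, by 1.23 ± 0.28 (adjusted p = 0.0101). PCNA, POLE3, RFC4, RFC5, POLD3 and RFC2 are named because they passed the test, after their values were seen.

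Of 16 other genes of the PARP family and poly(ADP-ribose) turnover, 3 were lower and 0 higher in H2-3 day 1 blood, a share of lower genes near the 13.5% of all genes. PARP2, the closest relative of PARP1 in the response to strand breaks, averaged 0.45 ± 0.17 in H2-3 day 1 blood and 1.33 ± 0.21 in H0 blood (change -0.88 ± 0.17, adjusted p = 0.00077) and was lower in H1-2 day 1 blood (-0.65 ± 0.18, adjusted p = 0.0317). PARP11 fell by 1.44 ± 0.36 (adjusted p = 0.0047), with 3 of 5 H2-3 day 1 arrays well above background. PARP15 was well above background on 5 of 5 H0 arrays, on no H2-3 day 1 array and on 1 array of each other group. It passed the filter on dim probes only through H0, where it was high. Its call as lower, and its place among the 3 lower genes, therefore carries no weight. The bound was at least 1.74-fold lower (limma adjusted p = 0.00372 on the measured signals). PARP3 did not pass the filter. The median changes in H2-3 day 1 blood were -0.13 for the glycosylases, -0.15 for end processing, -0.68 for the long patch and -0.04 for the PARP family, beside 0.14 over all genes.

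**Figure D4:**
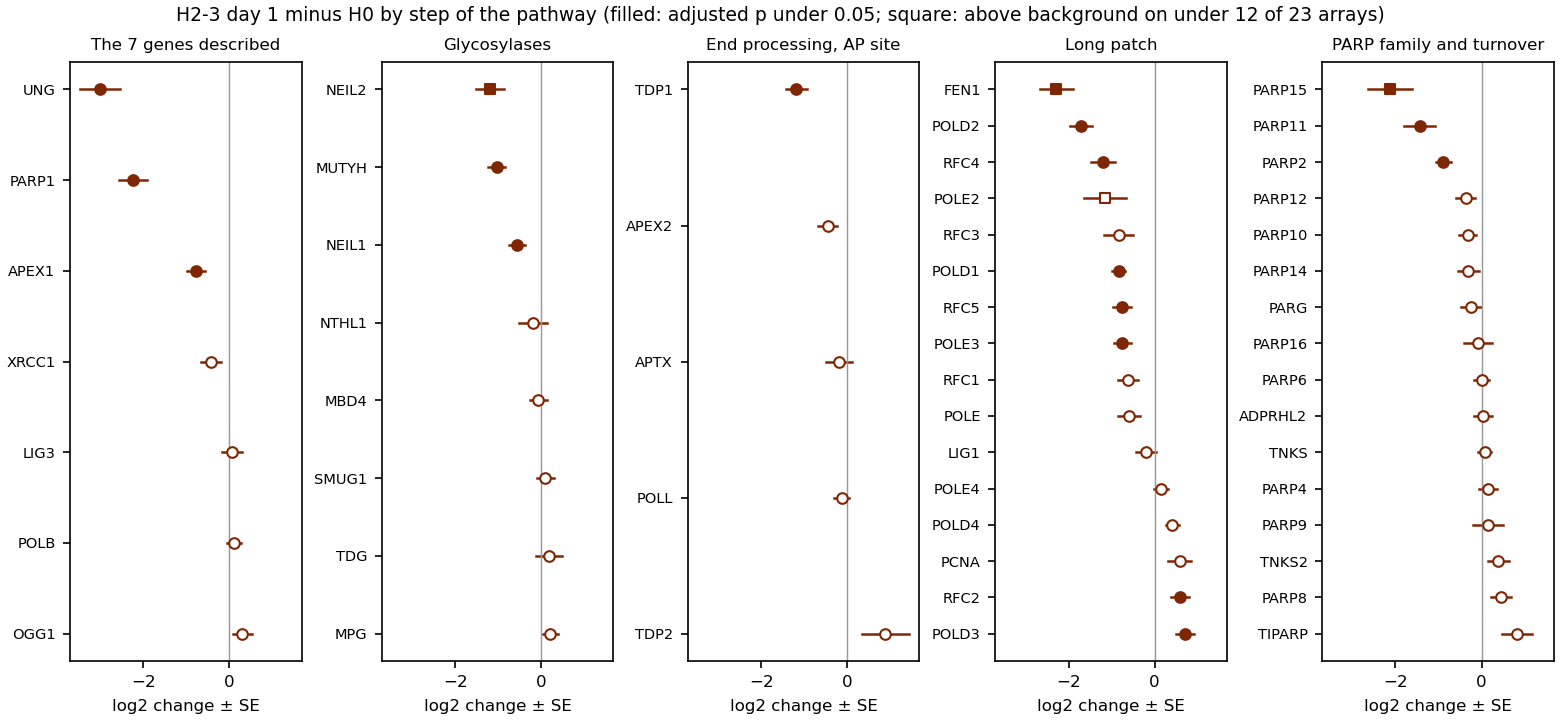
Log2 change in H2-3 day 1 blood against H0 (horizontal axis, point ± SE) of the 7 genes and of tested genes of 4 pathway lists (all but 1); filled points have a limma adjusted p under 0.05 and squares were well above background on fewer than 12 of the 23 arrays. UNG and PARP1 lie at -3.00 and -2.24. FEN1, NEIL2 and PARP15 are drawn at signals not well above background on any H2-3 day 1 array, so their places are not measured changes. Of the remaining genes in the other lists, POLD2 is the lowest.

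Whole blood mixes cell types, and in such samples fewer cells of a type and less RNA per cell cannot be told apart. Lymphocyte markers moved with PARP1 and UNG. Of 15 T cell markers, 11 were lower and 1 (LCK) higher in H2-3 day 1 blood, with a median change of -2.29 against H0, and 6 were lower in H1-2 day 1 blood (median -1.52). Over all genes, 13.5% were lower and 14.9% higher in H2-3 day 1 blood, and 4.42% lower in H1-2 day 1 blood. Their summed linear level ranged over 86.3 to 167.7 in H2-3 day 1, 133.4 to 341.6 in H2-3 day 2, 101.5 to 192.8 in H1-2 day 1, 193.6 to 357.6 in H1-2 day 2 and 241.6 to 490.1 in H0 blood. Of 12 B cell markers measured, 10 were lower in H2-3 day 1 blood (median -3.43) and 11 in H2-3 day 2 blood (median -2.26), where 4.47% of all genes were lower. In H1-2 blood none passed the limma test, with medians of -0.69 on day 1 and -0.65 on day 2. Their summed level was 60.5 to 193.8 in H2-3 day 1, 46.7 to 115.3 in H2-3 day 2, 101.8 to 380.8 in H1-2 day 1, 54.3 to 424.2 in H1-2 day 2 and 217.6 to 342.9 in H0 blood. CD22 was not well above background on any H2-3 day 1 array.

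Markers of myeloid cells ran the other way. Of 11 neutrophil markers, 10 were higher in H2-3 day 1 blood (median 1.86), and of 10 monocyte markers, 8 (median 1.24), beside 14.9% of all genes. Natural killer cell markers fell with the T cell list, 9 of 10 in H2-3 day 1 blood (median -2.35), beside 13.5% of all genes. GZMA, 1 of these 10, was not well above background on any H2-3 day 1 array or on any H1-2 array. Erythroid markers had medians of -0.04 in H2-3 day 1 and -0.11 in H2-3 day 2 blood. Of 9 platelet markers, 5 were higher in H2-3 day 2 blood, beside 10.3% of all genes.

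Across the 23 arrays the level of PARP1 correlated with the mean of the T cell markers at r = 0.91, and at r = 0.81 once each array was set against its own group's mean. For UNG the values were 0.86 and 0.74, for APEX1 0.69 and 0.25, and for POLB -0.10 and -0.44. Of the other lists, the B cell and monocyte markers came nearest in size. With the B cell markers PARP1 had 0.88 and 0.77 and UNG 0.87 and 0.76. With the monocyte markers PARP1 had -0.88 and -0.69 and UNG -0.77 and -0.55. The remaining lists gave smaller values within groups. PARP1 had 0.35 with the natural killer cell, -0.36 with the neutrophil, 0.41 with the erythroid and -0.29 with the platelet markers. UNG had 0.37, -0.16, 0.37 and -0.06 in the same order. These are descriptions: the arrays share baboons, slides and the scaling of each array. The part of cell composition in the changes of PARP1, UNG and APEX1 was not tested.

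**Figure D5:**
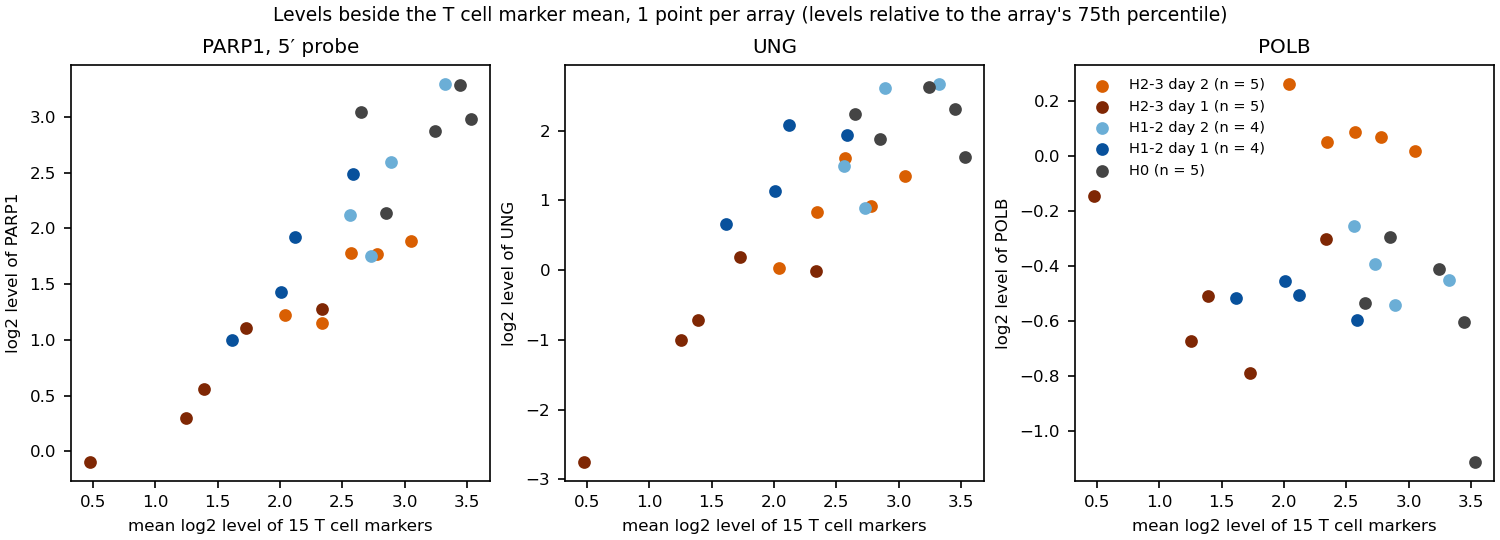
Log2 level of PARP1 (5′ probe), UNG and POLB (vertical axes) beside the mean log2 level of 15 T cell markers (horizontal axes), 1 point per array, coloured by group. PARP1 and UNG are low where the T cell mean is low, with H2-3 day 1 at the lower left, and the H2-3 day 2 points of POLB lie apart at the top.

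The genes that ran most like PARP1 over the 23 arrays were ZDHHC8 (r = 0.97), KLC2 (0.96), FCHO1 (0.96), SLC25A23 (0.96) and PPM1K (0.95), out of 11041 genes with a symbol that were well above background on every array. ZDHHC8 adds palmitate to proteins, KLC2 is a kinesin light chain, FCHO1 acts in clathrin-mediated endocytosis, and SLC25A23 and PPM1K are mitochondrial proteins. In H2-3 day 1 blood their changes against H0 were -1.93, -2.15, -1.94, -2.30 and -2.55, beside -2.24 for PARP1. Correlation of the 2 PARP1 probes with each other was 0.96, and that of PARP1 with UNG 0.91. With its partner XRCC1 the value was 0.36, and with LIG3 0.06.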

How the data were processed

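RNA from 2.5 ml of PAXgene blood (100 ng, Cy3) was hybridised by the authors to human Agilent arrays, per the labels' protocols. Spot intensity, linear and background-subtracted by Agilent Feature Extraction 10.7.3.1, was deposited per array, and the same files mark spots well above background and place the probes on hg19, per the file headers. A second deposited table gives log2 values for 39726 probes. Each column followed its own array (r 0.9982 to 0.9999, positive slope, all medians 4.7029), and how its probes were selected and centred is unknown. It served as an alternative.

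From the processed signal, log2 was taken, spots of a probe were averaged and each array's own 75th percentile was subtracted, control spots left out. Probes well above background on at least 4 of 23 arrays were kept (27215 of 50599). One limma fit (limma 3.58.1, R 4.3.3) with a mean for each of the 5 groups gave all tests, two-sided, with Benjamini-Hochberg adjustment over the 27215 probes and a threshold of 0.05. The kept probe with the highest mean stood for its gene in counts. The number of arrays limits the precision. A gene not above background on any array of a group has only a bound there: the H0 mean was set against, per array, the higher of its own signal and the lowest signal well above background. The adjusted p printed beside a bound is that of the limma fit on the measured signals, not of the bound.

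The 7 genes, the pathway and marker lists and the comparisons were chosen with earlier results of these data known. Named besides the 7 were the 3 genes of each pathway list with the smallest p of the test over all groups, and the 5 most like PARP1 by Pearson's r; 1 gene that this rule picked is not reported here. Sample titles give each baboon 1 number for both days, and the pairing of days was taken from them. The deviations of the same baboon on the 2 days correlated at 0.05 to 0.38 in H1-2 and 0.07 to 0.43 in H2-3. The same number was the best match for 0 of 4 baboons in H1-2 and 4 of 5 in H2-3. Between H2-3 day 2 and H0, which the labels do not pair, arrays of the same number correlated at -0.09 to 0.49. On simulated data at the size of H2-3 day 1 against H0, the fit over 27215 probes called 13 of 50 probes changed by 1 on the log2 scale, 38 of 50 changed by 2 and 0 of 50 changed by 0.5, with 6 false calls. Far fewer probes were changed there than the 7770 called in the real comparison, which makes the adjusted threshold stricter. These counts are therefore not the sensitivity of the real fit, which called APEX1 at -0.79. Alternatives were quantile scaling, a percentile over detected probes, normexp background (offset 50), the deposited table, other filters, a fit of only the groups compared, slide, scan day or baboon as a block, and leaving out each array. Dose was not analysed.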

Additional observations from a re-analysis of the deposited data

Results flagged for a closer look

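Of 45 groups of 4 or 5 arrays tested for a sample far from the rest, 2 had one, and chance alone gives about 1 in 20. The 3′ probe of PARP1 read 0.64 in H0 replicate 2, against 1.18 to 1.39 in the other H0 arrays. Without that array both PARP1 calls in H2-3 blood held. POLB read 0.26 in H2-3 day 2 replicate 1, against 0.02 to 0.09 in the other 4 arrays of its group. The POLB change against H0 kept its call in all 10 fits that left out 1 array, with values of 0.56 to 0.76.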

How the results depend on the processing

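The falls of PARP1 (both probes) and UNG in H2-3 day 1 blood kept their direction and their call in the 13 alternatives run for the 5′ probe, the 12 run for the 3′ probe and the 12 run for UNG, and in the 10 fits that left out 1 array. The change ranged over -2.97 to -1.81, -2.66 to -1.12 and -5.37 to -2.00 in these alternatives. Values below are log2 changes. With the 75th percentile taken over probes detected on all arrays, the median of all probes moved by -0.19 in H2-3 day 1, -0.16 in H2-3 day 2 and -0.12 in H1-2 day 1 blood against H0. Under it the sign turned for XRCC1 in H2-3 day 2 (-0.13), OGG1 A_23_P344392 and POLB in H1-2 day 1 (-0.080 and -0.045), LIG3 and POLB in H2-3 day 1 (-0.12 and -0.079) and POLB in H2-3 day 1 against H1-2 day 1 (-0.034). XRCC1 in H2-3 day 2 also turned with quantile scaling (-0.11) and in the deposited table (-0.11), and the 3′ probe of PARP1 in H1-2 day 2 with normexp (0.0017). With slide as a block LIG3 in H2-3 day 1 gave -0.41 and POLB in H2-3 day 1 against H1-2 day 1 -0.051, and with scan day OGG1 A_23_P344392 and POLB in H1-2 day 1 gave -0.014 and -0.0015. None of these turned values passed the test in either setting, and the cause was not tested.

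Leaving out 1 array turned the sign of further uncalled changes, which then ranged over -0.057 to 0.15 (POLB, H1-2 day 1), -0.023 to 0.18 (POLB, H2-3 day 1), -0.051 to 0.11 (POLB, H2-3 day 1 against H1-2 day 1), -0.047 to 0.16 (OGG1 A_23_P344392, H1-2 day 1), -0.10 to 0.28 (LIG3, H2-3 day 1) and -0.11 to 0.12 (XRCC1, H2-3 day 2). In H1-2 day 2 they ranged over -0.045 to 0.17 (XRCC1), -0.035 to 0.35 (OGG1 A_23_P212196), -0.22 to 0.073 (PARP1, 3′ probe), -0.47 to 0.12 (UNG) and -0.027 to 0.21 (APEX1).

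The number of the 7 genes called in H1-2 day 1 against H0 was 0 with no filter on dim probes, with only the groups compared, with slide and with scan day as a block, and 0 to 2 when 1 array was left out. It was 1 to 2 in H2-3 day 2 against H0 when 1 array was left out. Between days in H2-3 blood it was 0 with the percentile over detected probes, with no filter, with only probes detected on all arrays (UNG is then not tested), with only the groups compared and with slide as a random block, 3 with the replicate block (the baboon, fixed or random), and 0 to 2 when 1 array was left out. Of the other changes between days, the 3′ probe of PARP1 gained a call with the random block (adjusted p = 0.0407) and not with the fixed one. With normexp the count stayed at 1, but the gene called was POLB (adjusted p = 0.0341) and not UNG. A block on the baboon number across categories and H0, which is only a shared number, called 1 gene in H2-3 day 1 against H1-2 day 1 (UNG, adjusted p = 0.00708). Slide as a random block was added after seeing the data. Slide or scan day as a fixed block could not be fitted for day 2 against H0 or day 1.

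Over all probes, 7770 were called in H2-3 day 1 (1286 to 8108 over the alternatives), 4020 in H2-3 day 2 (2036 to 4488) and 2364 in H1-2 day 1 (6 with scan day as a block, up to 2989) against H0, and 676 between days in H2-3 blood (187 to 3895). Where no probe was called, the alternatives gave up to 4 in H1-2 day 2 against H0, 72 and 1 between categories on day 1 and day 2, and 1051 between days in H1-2 blood. Leaving out 1 array gave 6312 to 8526, 1072 to 5477 and 9 to 4078 against H0 in the order above, and 20 to 4180 between days in H2-3 blood. Signals not well above background limit UNG on 1 array and the dim genes NEIL2, FEN1 and PARP15.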
